A study of Homo sapiens with 12 samples.

Results

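The 10 genes described here encode repressors and output factors of the circadian clock: PER1, PER2, PER3, CRY1, CRY2, NR1D1, NR1D2, DBP, TEF and BHLHE40. They were chosen by name, with earlier results of these data known, and matched by Ensembl identifier. All 10 were found among the 58051 genes of the count tables. All 10 also passed the filter on low counts, which kept 27915 genes for testing. RNA was sequenced from HCT116, a line of epithelial cells from a human colon carcinoma. Cells received 1 of 3 small interfering RNAs (siRNAs, short duplexes that lower the messenger RNA they match), and 24 h later were put without serum for 48 h. The control siRNA is called siControl, and siPFDN2 and siPFDN5 are directed against PFDN2 and PFDN5, subunits of the prefoldin chaperone. Each target had 1 siRNA sequence. Cells were collected before serum or 90 min after serum was given back, which makes 6 groups of 2 libraries. All groups share the cell line, the transfection and the starvation, and no group without an siRNA or without starvation was analysed here.

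In the clock, CLOCK and ARNTL (also called BMAL1) bind E-box sequences and activate the PER and CRY genes, whose proteins return to the nucleus and repress CLOCK and ARNTL. A second loop runs through NR1D1 and NR1D2 (the REV-ERB nuclear receptors), which repress ARNTL, and BHLHE40 (DEC1) competes for E-boxes, while DBP and TEF are bZIP factors that activate genes through D-boxes. A pulse of serum after starvation is a classical way to reset this clock in cultured cells, and PER1 and PER2 are known as its immediate-early members.

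Totals of gene-body fragments (exons and introns) ran from 59784425 to 136504590. Levels are given as CPM, counts scaled to each library's TMM-adjusted total. The serum itself was visible in all 6 check genes (FOS, SRF, JUNB, EGR1, IER2 and MYC), which rose in the average over the siRNAs, beside 7.6% of all genes. FOS was at a log2 fold change of 2.36 (edgeR adjusted p = 5.5e-06). Under the separate siRNAs, 5 were called higher in siControl, 4 in siPFDN2 and 4 in siPFDN5. The median log2 fold changes of the 6 were 2.15, 1.53 and 1.05 in that order. Of all genes, 2.87%, 3.26% and 12.2% were called there in either direction. The epithelial markers KRT8, KRT18, KRT19, EPCAM, CDH1 and VIL1 summed to 2334 to 3304 exon CPM before serum and 2572 to 3329 exon CPM after it. The 9 markers of other cells (PTPRC, CD3E, PECAM1, VWF, COL1A1, COL1A2, DCN, ACTA2 and VIM) summed to 11.6 to 28.99 and 16.97 to 27.2 exon CPM, most of it COL1A1, ACTA2 and VIM, and PTPRC, CD3E, COL1A2 and DCN had at most 4 exon fragments in any library and 0 in some. PFDN2 was at 7.55 to 9.47 CPM in the siPFDN2 libraries against 11.2 to 19.5 CPM in siControl. It was above siControl under siPFDN5, at 21.8 and 21.1 CPM before serum and 23.1 and 28.7 CPM in the libraries labelled as after serum. The cause of that was not tested. PFDN5 was at 41.0 and 44.2 CPM under siPFDN5 before serum against 76.8 and 68.9 CPM in siControl. The libraries labelled siPFDN5 after serum had 67.5 and 68.6 CPM of it against 67.9 and 74.0 CPM, which overlapped, and in exon counts 78.0 and 79.6 CPM against 87.3 and 90.1 CPM, which did not. PFDN5 was thus little below siControl there, and every direction drawn from those libraries below rests on their label. The second library of siPFDN2 before serum stood apart: the Spearman correlation of its deviation from the other libraries with gene GC content was 0.688 over 27632 genes, against -0.280 to 0.133 in the other 11. Nothing says that replicates came from separate cultures, so p-values measure only the spread between these libraries, which may be technical.

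Levels of different members were compared per length, as exon CPM per kb of exon, with the mean and SD of 2 libraries. Before serum in siControl, NR1D2 was the highest at 29.4 ± 2.14, followed by NR1D1 at 9.41 ± 0.413, BHLHE40 at 6.46 ± 2.03 and TEF at 5.53 ± 0.387. DBP was at 3.79 ± 0.209, PER1 at 3.28 ± 0.17, CRY1 at 2.59 ± 0.158, PER2 at 2.22 ± 0.314, CRY2 at 1.74 ± 0.287 and PER3 at 0.719 ± 0.137. BHLHE40 and TEF overlapped in that order, and the other neighbours did not. The exon length covers every annotated exon, so these ranks depend on the annotation. For DBP it is 6544 of the 7409 bases of the gene body, against 2772 bases for NR1D1. Without division by length, DBP was at 23.8 and 25.8 exon CPM there and NR1D1 at 26.9 and 25.3. After serum in siControl, BHLHE40 was the highest at 67.9 ± 7.59, NR1D2 was next at 38.93 ± 0.369 and PER1 followed at 21.3 ± 2.77, and no neighbours overlapped. NR1D2 was the highest member before serum and BHLHE40 the highest after it under every siRNA, and PER3 was the lowest member in all 6 groups. In siPFDN2 before serum, neighbours overlapped at every rank except CRY2 and PER3.

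**Figure D1:**
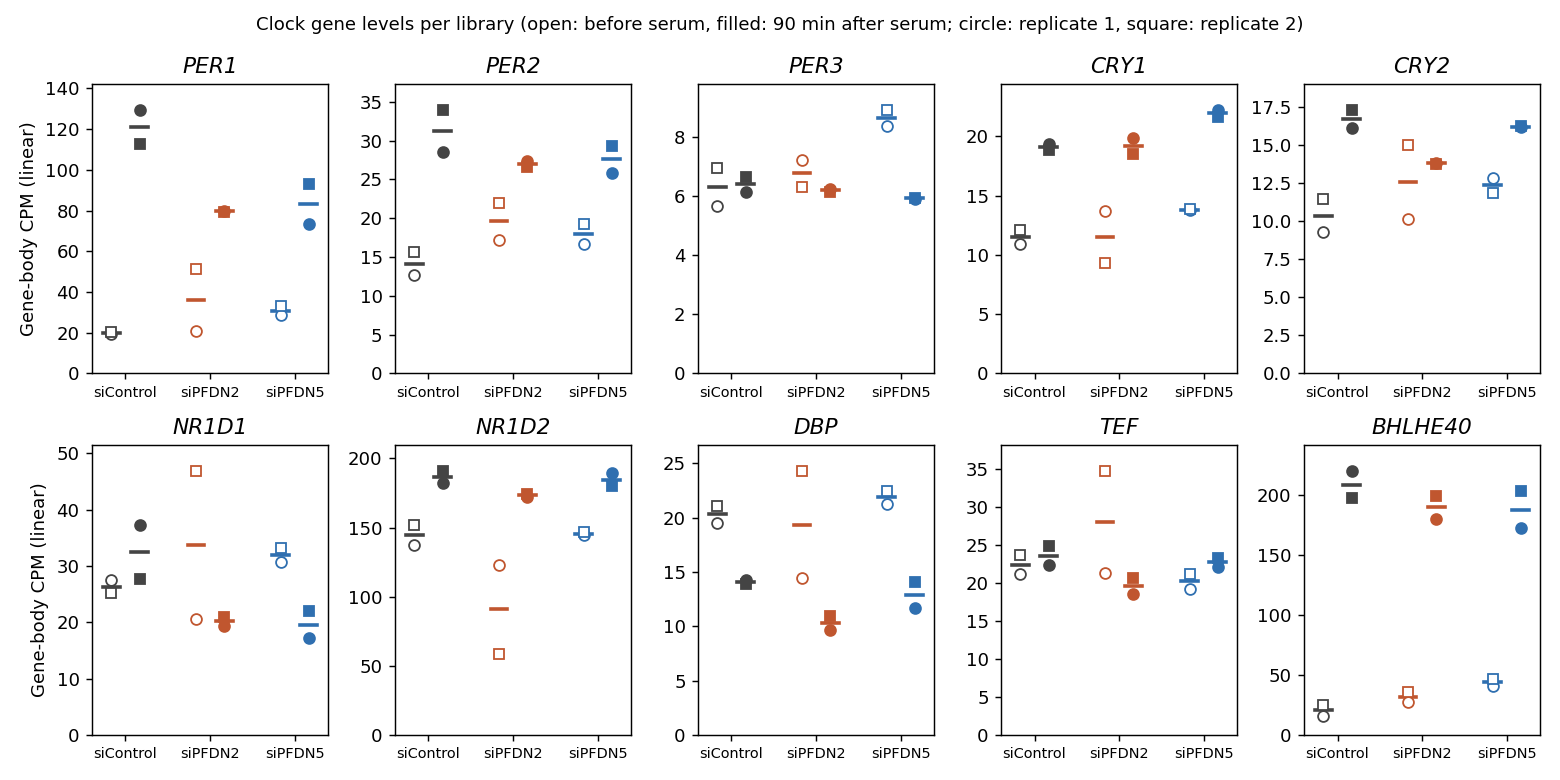
Gene-body CPM (linear axes from 0, a separate scale for each gene) of the 10 clock genes in all 12 libraries, with open symbols before serum, filled symbols 90 min after serum, circles for replicate 1, squares for replicate 2 and bars for the mean of 2 libraries. PER1 and BHLHE40 are higher after serum under every siRNA, and the open orange square (siPFDN2 before serum, replicate 2) stands away from its partner for PER1, NR1D1, NR1D2, DBP and TEF.

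Serum raised BHLHE40, PER1, PER2, CRY1, NR1D2 and CRY2 and lowered DBP in the average over the 3 siRNAs. With 7 of 10 members called at an adjusted p under 0.05 by edgeR's quasi-likelihood test, the share stood beside 14.9% of all genes tested. Because the members were chosen with earlier results of these data known, the 2 shares are a description and not a test. 6 members rose (7.6% of all genes) and 1 fell (7.31% of all genes). The median log2 fold change of the 10 members was 0.48, against -0.03 over all genes. BHLHE40 changed most, 6.39-fold, then PER1, 3.31-fold, and the other 4 rises lay between 1.32-fold (CRY2) and 1.67-fold (PER2). NR1D1, PER3 and TEF did not pass. In bulk RNA a lower level in every cell and fewer cells with the transcript cannot be told apart.

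Of the 3 PER genes, which encode the inhibitory partners of the CRY proteins, PER1 (chromosome 17, 8140472 to 8156506, minus strand, GRCh38) had the highest fold change. In siControl, PER1 went from 19.4 and 20.5 CPM before serum to 129 and 113 CPM after it. Under siPFDN2 it was at 21.0 and 51.1 CPM before and 80.0 and 79.4 CPM after, and under siPFDN5 at 28.7 and 32.9 CPM before and 73.3 and 93.1 CPM after. The 6 libraries before serum and the 6 after it did not overlap, and the siControl libraries were the lowest before serum and the highest after it. The log2 fold change of PER1 was 2.60 ± 0.33 (SE) in siControl (edgeR adjusted p = 0.000994), 1.14 ± 0.31 in siPFDN2 (0.0716), 1.43 ± 0.32 in siPFDN5 (0.0202) and 1.73 ± 0.18 on average (0.000107).

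PER2 (chromosome 2, 238244038 to 238290102, minus strand), the partner of PER1 in the early response of the clock, also rose. In siControl, PER2 went from 12.7 and 15.6 CPM before serum to 28.5 and 33.9 CPM after it. Under siPFDN2 it was at 17.2 and 21.98 CPM before and 27.4 and 26.6 CPM after, and under siPFDN5 at 16.7 and 19.3 CPM before and 25.8 and 29.3 CPM after. No library before serum reached the lowest library after it. Its log2 fold change was 1.14 ± 0.18 in siControl (edgeR adjusted p = 0.00477), 0.46 ± 0.18 in siPFDN2 (0.135), 0.61 ± 0.18 in siPFDN5 (0.0479) and 0.74 ± 0.10 on average (0.00081). The siControl call was lost in 1 of the 12 fits that each left out 1 library, the one without the first siControl library before serum (adjusted p = 0.109).

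PER3, the remaining paralogue, did not pass. It was at 5.65 to 8.90 CPM before serum and 5.90 to 6.65 CPM after it, and the groups overlapped. Its averaged log2 fold change was -0.22 ± 0.09 (edgeR adjusted p = 0.131). The value was -0.54 ± 0.16 in siPFDN5 (0.0503), where both libraries before serum (8.34 and 8.90 CPM) lay above both after it (5.90 and 5.93 CPM). Exon fragments of PER3 are uncertain, because 16.7% of its exonic bases are shared with UTS2 and Z98884.1, which lie on the other strand, and counting did not use strand.

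The cryptochromes CRY1 and CRY2, the stronger repressors of CLOCK and ARNTL, both rose on average. CRY1 was at 10.9 and 12.1 CPM before serum and 19.3 and 18.8 CPM after it in siControl, at 13.7 and 9.30 and then 19.8 and 18.5 CPM under siPFDN2, and at 13.8 and 13.8 and then 22.2 and 21.6 CPM under siPFDN5. The libraries before and after serum did not overlap, and the log2 fold changes were 0.73 ± 0.18 in siControl, 0.74 ± 0.18 in siPFDN2 and 0.67 ± 0.18 in siPFDN5. By edgeR the adjusted p was 0.0566, 0.0499 and 0.0372 in that order, and 0.00105 for the average of 0.71 ± 0.10. CRY2 was at 9.26 to 15.0 CPM before serum and 13.8 to 17.3 CPM after it, with an overlap that came from the second library of siPFDN2 before serum. Its log2 fold change was 0.69 ± 0.19 in siControl (edgeR adjusted p = 0.0969), 0.13 ± 0.19 in siPFDN2 (0.656), 0.39 ± 0.19 in siPFDN5 (0.191) and 0.41 ± 0.11 on average (0.0323). The averaged call of CRY2 was kept in 4 of the 12 fits that each left out 1 library, with the adjusted p reaching 0.103: those without the second siControl library before serum, the first after it, or either library of siPFDN2 before serum.

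Of the REV-ERB receptor genes, NR1D2 rose on average and NR1D1 did not pass. NR1D2 was at 138 and 152 CPM before serum and 182 and 191 CPM after it in siControl, at 123 and 58.6 and then 172 and 174 CPM under siPFDN2, and at 144 and 147 and then 189.5 and 180.0 CPM under siPFDN5. No library before serum reached one after it. The averaged log2 fold change of NR1D2 was 0.55 ± 0.15 (edgeR adjusted p = 0.0327), and the call was kept in only 2 of the 12 fits that each left out 1 library, those without either library of siPFDN2 before serum. NR1D1 was at 27.5 and 25.1 CPM before serum and 37.3 and 27.6 CPM after it in siControl, at 20.5 and 46.8 and then 19.4 and 20.9 CPM under siPFDN2, and at 30.7 and 33.2 and then 17.2 and 21.96 CPM under siPFDN5. Both siControl libraries were higher after serum and both siPFDN5 libraries lower, and the siPFDN2 groups overlapped. Its log2 fold change was 0.30 ± 0.31 in siControl (edgeR adjusted p = 0.814), -0.74 ± 0.31 in siPFDN2 (0.155) and -0.71 ± 0.31 in siPFDN5 (0.147), and the average was -0.38 ± 0.18 (0.161). Without the second library of siPFDN2 before serum, which had 46.8 CPM, the siPFDN2 value was -0.03 and the average -0.14, and without the first they were -1.20 and -0.53. NR1D1 shares 9.49% of its exonic bases with THRA, which is transcribed from the other strand, so fragments of the 2 genes there cannot be told apart. THRA was at 29.9 to 66.4 exon CPM before serum and 26.3 to 37.6 exon CPM after it, and its part in the NR1D1 counts was not tested.

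Of the bZIP output factors, DBP fell and TEF did not pass. DBP was at 19.5 and 21.1 CPM before serum and 14.3 and 13.9 CPM after it in siControl, at 14.4 and 24.3 and then 9.69 and 10.9 CPM under siPFDN2, and at 21.3 and 22.5 and then 11.7 and 14.05 CPM under siPFDN5. Every library before serum was above every library after it, though by little at the edge. DBP fell by 0.73 ± 0.13 on the log2 scale on average (edgeR adjusted p = 0.00307), by 0.91 ± 0.22 in siPFDN2 (0.0487) and 0.76 ± 0.22 in siPFDN5 (0.0445). Its value in siControl was -0.52 ± 0.22 (0.333). The siPFDN2 value was -0.49 without the second library of that group before serum and -1.22 without the first. SPHK2, on the other strand, shares 10.1% of the exonic bases of DBP and was itself at 10.5 to 19.6 exon CPM before serum and 8.79 to 9.59 exon CPM after it, and its part in the DBP counts was not tested. TEF, the other D-box activator among the members, was at 19.3 to 34.7 CPM before serum and 18.6 to 24.9 CPM after it, and its averaged log2 fold change was -0.09 ± 0.12 (edgeR adjusted p = 0.625). TEF took the other sign, 0.028, once the GC trend was removed.

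BHLHE40 (chromosome 3, 4979116 to 4985323, plus strand), a repressor that binds E-boxes, had the largest change of the members. It was at 16.1 and 25.2 CPM before serum and 219.8 and 198 CPM after it in siControl, at 27.5 and 35.8 and then 180.2 and 199.5 CPM under siPFDN2, and at 40.7 and 46.8 and then 172 and 203 CPM under siPFDN5. The groups before and after serum lay far apart, and before serum the libraries followed the order siControl, siPFDN2, siPFDN5 with no overlap. The log2 fold change was 3.34 ± 0.23 in siControl (edgeR adjusted p = 1.21e-05), 2.58 ± 0.23 in siPFDN2 (7.93e-05), 2.10 ± 0.22 in siPFDN5 (0.000318) and 2.67 ± 0.13 on average (1.78e-07). These calls stood in all 12 fits that each left out 1 library.

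**Figure D2:**
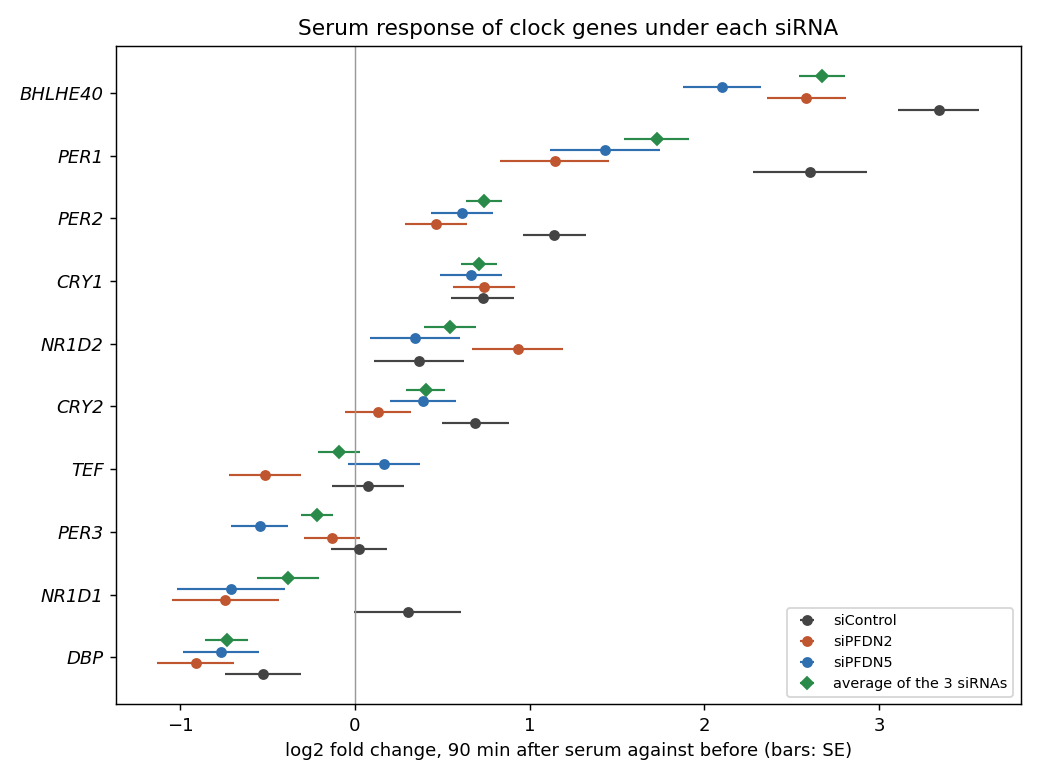
Log2 fold change of the 10 clock genes 90 min after serum against before, with bars of 1 SE from the edgeR fit over 12 libraries, for each siRNA (circles) and for the average of the 3 (green diamonds). BHLHE40, PER1 and PER2 lie furthest to the right in siControl, and DBP lies to the left of 0 under every siRNA.

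Under the separate siRNAs, 3 members were called in siControl (2.87% of all genes were), 3 in siPFDN2 (3.26%) and 5 in siPFDN5 (12.2%). PER1, PER2 and BHLHE40 were called in siControl, CRY1, DBP and BHLHE40 in siPFDN2, and PER1, PER2, CRY1, DBP and BHLHE40 in siPFDN5. Of the 12 fits that each left out 1 library, the siPFDN2 calls of CRY1 and DBP and the siPFDN5 call of DBP were kept in 2, both without a library of siPFDN2 before serum. The siPFDN5 calls of PER2 and CRY1 were kept in 4, and that of PER1 in 8, being lost without any of the 4 siPFDN5 libraries. With both libraries labelled siPFDN5 after serum left out, an alternative chosen after seeing the data, PER1, PER2, CRY1, BHLHE40 and DBP were still called in the average of the other siRNAs, 5 members beside 5.66% of all genes, and CRY2 and NR1D2 were not.

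These counts were higher without either library of siPFDN2 before serum. The GC trend of the second was 0.78 on the log2 scale at PER1 and 0.62 at NR1D1, both GC-rich, and -0.69 at CRY1 and -0.63 at NR1D2, both GC-poor. With the trend of every library removed, 6 members were called in siControl (6.34% of all genes), 6 in siPFDN2 (6.72%), 9 in siPFDN5 (29.3%) and 8 on average (28.4%). With the second library of siPFDN2 before serum left out, 7 were called in siControl (9.95%), 6 in siPFDN2 (4.0%), 9 in siPFDN5 (36.3%) and 8 on average (27.5%). With the first left out instead, 7 were called in siControl (9.79%), 7 in siPFDN2 (48.6%), 9 in siPFDN5 (36.0%) and 9 on average (47.3%). In siPFDN2, PER1 then had a log2 fold change of 1.76 ± 0.16 with the trend removed (edgeR adjusted p = 2.65e-05) and 1.93 ± 0.15 without the second library (3.65e-06), in place of 1.14, and 0.65 ± 0.14 without the first (0.0015). CRY1 in siPFDN2 lost its call with the trend removed, at 0.35 (0.0545). PER3 and NR1D1 were called lower in siPFDN5, and TEF was not called, with the trend removed or without the second library.

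**Figure D3:**
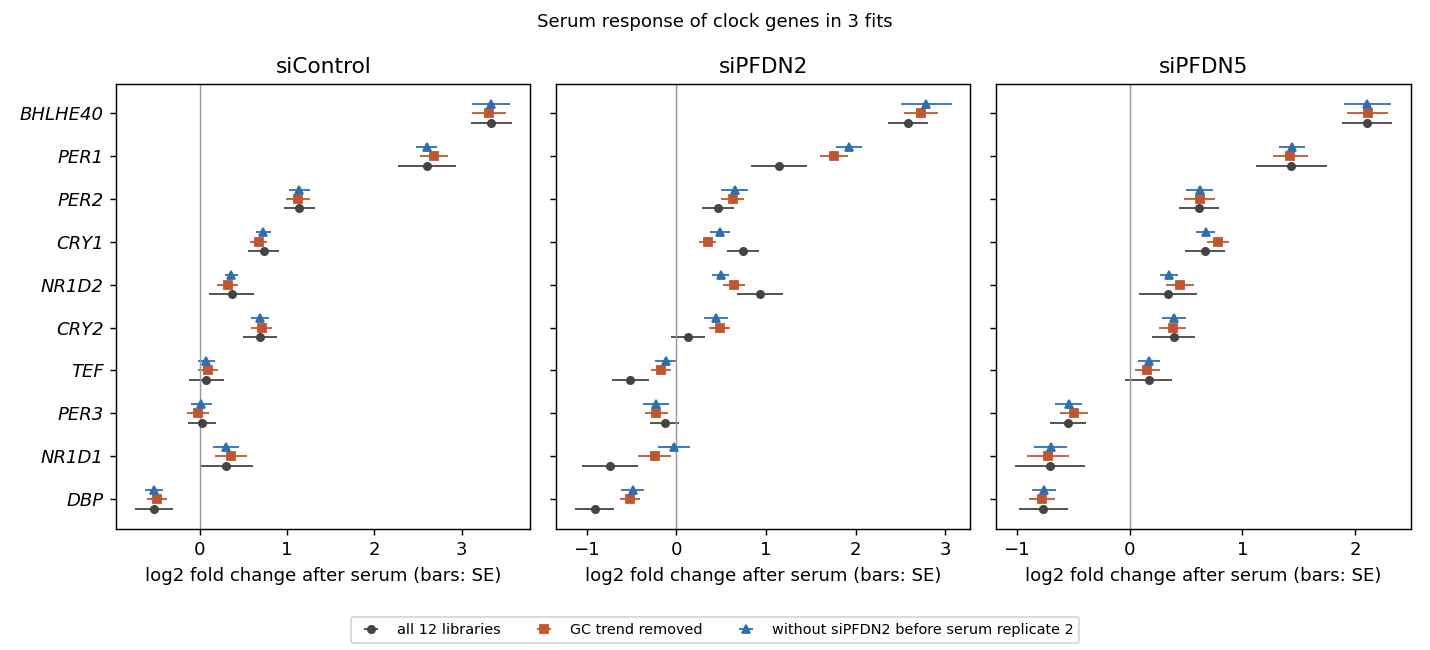
Log2 fold change after serum (bars: 1 SE) of the 10 clock genes under each siRNA in 3 edgeR fits: all 12 libraries (circles), GC trend removed (squares) and without siPFDN2 before serum replicate 2 (triangles). In siControl and siPFDN5 the 3 estimates lie close together and the bars shorten, while in siPFDN2 PER1 moves from 1.14 to 1.76 and 1.93.

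Whether the serum response differed between siRNAs was tested as an interaction. By edgeR no member passed in either difference: 4 of 10 members had an unadjusted p under 0.05 in each, beside 6.6% of all genes in siPFDN2 minus siControl and 20.9% in siPFDN5 minus siControl, and 0.0% of all genes passed after adjustment in both. DESeq2 called 0 members in the first (0.00716% of all genes) and 1, BHLHE40, in the second (6.2%). The members with an unadjusted p under 0.05 were PER1, PER2, NR1D1 and BHLHE40 in siPFDN2, and PER1, PER3, NR1D1 and BHLHE40 in siPFDN5, and both differences share the siControl libraries. In the libraries labelled siPFDN5 the differences were -1.17 ± 0.44 for PER1 (edgeR adjusted p = 0.163), -0.53 ± 0.25 for PER2 (0.261), -0.57 ± 0.23 for PER3 (0.188), -1.01 ± 0.43 for NR1D1 (0.214) and -1.24 ± 0.30 for BHLHE40 (0.096). In siPFDN2 they were -1.46 ± 0.44 for PER1, -0.68 ± 0.25 for PER2, -1.04 ± 0.43 for NR1D1 and -0.76 ± 0.30 for BHLHE40, each at 0.582 by edgeR. After removal of the GC trend, PER1 (-1.25, adjusted p = 0.0432), NR1D1 (-1.08, 0.0436) and BHLHE40 (-1.21, 0.0432) passed in siPFDN5, 3 members beside 8.69% of all genes, and without the second library of siPFDN2 before serum 5 passed beside 21.8% of all genes. Without that library the siPFDN2 differences were -0.67 for PER1, -0.49 for PER2, -0.32 for NR1D1 and -0.55 for BHLHE40, each at an edgeR adjusted p of 0.981. Without the first library of siPFDN2 before serum instead they were -1.95, -0.83, -1.50 and -0.92 in that order, and 7 members passed beside 37.7% of all genes.

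Levels of the members at each time were also set between siRNAs. No member passed by edgeR in any of the 4 comparisons, in which 0.0% of all genes passed for siPFDN2 before serum, 0.00716% for siPFDN5 before, 0.0% for siPFDN2 after and 0.00358% for siPFDN5 after. At an unadjusted p under 0.05 there were 4, 2, 1 and 1 members in that order, beside 11.3%, 12.3%, 6.26% and 21.6% of all genes, and DESeq2 called only BHLHE40, in siPFDN5 before serum (1.17% of all genes). Before serum, BHLHE40 was 2.12-fold higher in siPFDN5 than in siControl (log2 1.09 ± 0.22, edgeR adjusted p = 0.147) and PER1 1.55-fold higher (0.63 ± 0.31, 0.449). With the GC trend removed BHLHE40 passed at 1.0985 (0.0275), 1 member beside 0.652% of all genes, and without the second library of siPFDN2 before serum PER1, PER3 and BHLHE40 passed, 3 members beside 6.96%. After serum, BHLHE40 overlapped between siRNAs (172 to 219.8 CPM), while PER1 was highest in the siControl libraries: its log2 difference from siControl was -0.61 ± 0.31 in siPFDN2 (0.772) and -0.54 ± 0.31 in siPFDN5 (0.333). NR1D1 after serum was likewise highest in siControl, at -0.69 ± 0.31 in siPFDN2 (0.772) and -0.73 ± 0.31 in siPFDN5 (0.201). PER1 and NR1D1 passed as lower in siPFDN5 after serum with the GC trend removed (2 members beside 13.5% of all genes) and without that library (2 beside 23.9%), and PER1 alone passed as lower in siPFDN2 without it (1 beside 0.568%). In siPFDN2 before serum, NR1D2 was at -0.67 ± 0.26 against siControl (0.442), with 123 and 58.6 CPM in the 2 libraries, and moved to -0.23 without the second.

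Gene-body counts hold fragments from introns, so the share of a gene's fragments that lie outside exons was set before and after serum. Serum lowered this share for PER1, BHLHE40, NR1D2, PER2 and CRY2. By edgeR, with the library as a block, these 5 of 10 members were called in the average, all lower, beside 21.4% of the 17571 genes tested (11.5% lower). The change is relative to most genes, because exon and intron fragments were scaled separately. PER1 had 7.38% and 5.31% intronic fragments before serum and 2.36% and 1.70% after it in siControl, 4.84% and 4.41% and then 1.89% and 2.11% under siPFDN2, and 8.10% and 6.34% and then 2.28% and 1.83% under siPFDN5. The 2 times did not overlap, and the log2 change was -1.30 ± 0.14 (adjusted p = 1.55e-05). BHLHE40 went from 1.66% to 2.48% before serum to 0.546% to 1.05% after it (-1.21 ± 0.16, 7.34e-05), on 37 to 196 intronic fragments per library.

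Levels of the intronic fragments themselves were scaled to the intronic total. Those of BHLHE40 stood at 2.43 ± 0.447 intron CPM before serum and 8.35 ± 0.0297 after it in siControl (SD, n = 2), and those of PER1 at 6.69 ± 1.28 and 11.8 ± 1.18. BHLHE40 was higher after serum in all libraries of each siRNA. PER1 was so in siControl and siPFDN5, while under siPFDN2 its libraries overlapped, at 5.50 and 10.9 intron CPM before serum and 8.34 and 10.1 after it. PER2 had 12.01% to 14.4% intronic fragments before serum and 5.58% to 11.8% after it (-0.55 ± 0.12, edgeR adjusted p = 0.00478), again with no overlap. NR1D2 had 3.25% to 7.77% before and 1.42% to 4.34% after (-0.75 ± 0.15, 0.00225), and CRY2 11.7% to 17.2% before and 5.70% to 15.7% after (-0.51 ± 0.14, 0.0202), both with overlap from the first siControl library after serum. The call of CRY2 was kept in 8 of 12 fits that each left out 1 library (lost without the first siControl library before serum or the second of siPFDN2 after, siPFDN5 before or siPFDN5 after serum), and those of the other 4 in all 12. CRY1 did not pass (0.66 ± 0.23, 0.0543): in siControl its share was 6.52% and 7.69% before serum and 35.1% and 10.6% after it, and under siPFDN5 16.5% and 12.7% and then 5.25% and 7.35%. NR1D1 (0.36 ± 0.23, 0.272), PER3, TEF and DBP, which had at most 16 intronic fragments in a library, did not pass either. Annotated exons cover 6544 of the 7409 bases of DBP, so little of that gene could be counted as intronic. CRY2 is the only member that overlaps no other annotated gene, and among such genes alone it was called at -0.41 ± 0.14 (0.0345). Over all genes the intronic share was 15.0% and 17.3% in siControl before serum and 20.6% and 16.2% after it, 16.2% and 16.1% and then 20.9% and 19.3% under siPFDN2, and 22.8% and 25.9% and then 17.2% and 14.8% under siPFDN5, and the part of these library differences in the members' values was not tested.

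**Figure D4:**
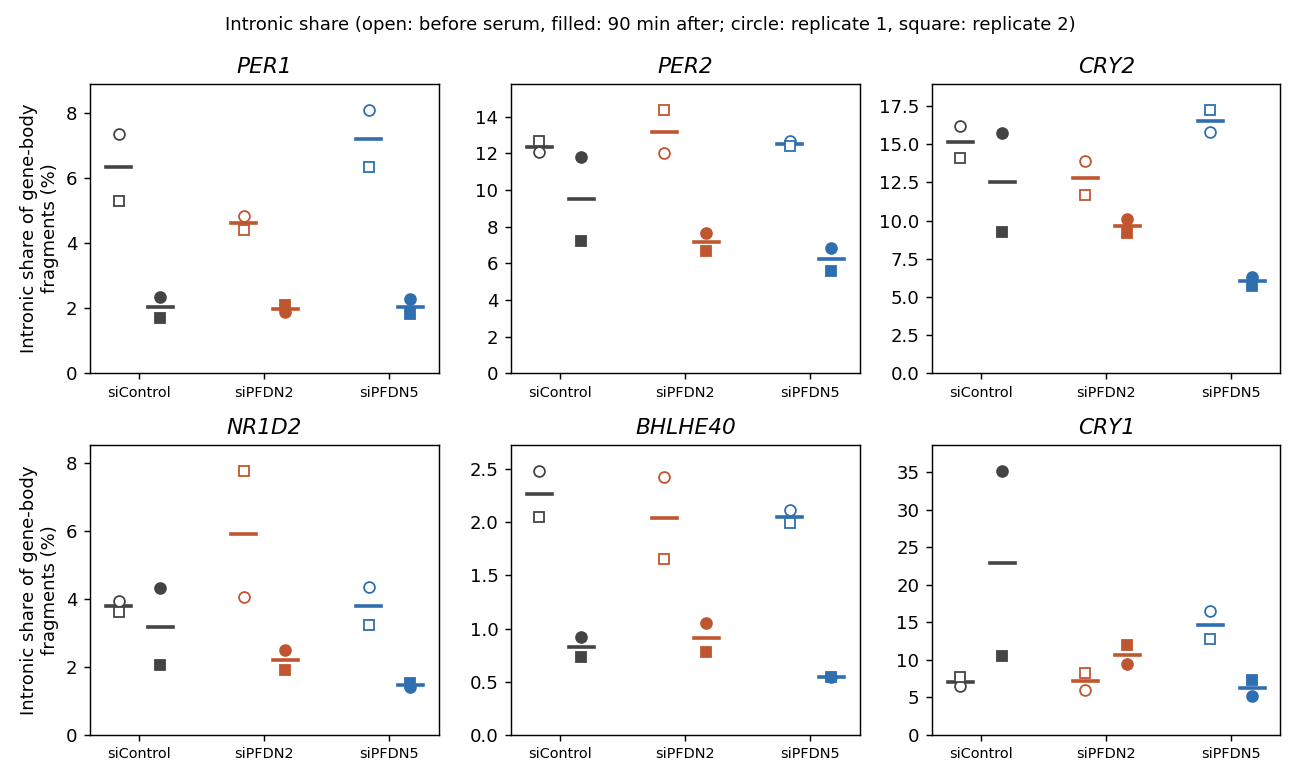
Percent of gene-body fragments outside exons (linear axes from 0, a separate scale for each gene) for 6 clock genes in all 12 libraries, with open symbols before serum, filled symbols 90 min after it, circles for replicate 1, squares for replicate 2 and bars for the mean of 2 libraries. PER1 and BHLHE40 separate completely by time, and for CRY1 the first siControl library after serum stands at 35.1%.

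Exon counts gave the same 7 members in the average as gene-body counts, with PER1 at 1.75, BHLHE40 at 2.66 and DBP at -0.77 on the log2 scale. Transcript estimates gave 6, without NR1D2. Most of the estimated counts fell on 1 protein-coding transcript for PER2 (93.8% to 98.7% over the 12 libraries), BHLHE40 (90.0% to 99.1%), PER1 (75.6% to 89.6%) and CRY1 (85.5% to 95.4%). CRY2 was split between 2 protein-coding transcripts, with medians of 55.1% and 39.3% before serum and 57.0% and 40.0% after it. Before serum they ran from 18.0% to 57.4% and from 38.0% to 76.7%, so their order was not the same in every library. For BHLHE40 a transcript with a retained intron had a median of 3.22% before serum and 1.11% after it.

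Promoter sequences are shown for the members that changed most (BHLHE40, PER1, PER2), both REV-ERB genes, and DBP, which fell. RefSeq promoters (GRCh38.p14) run from 250 bases before to 50 after a gene start, and the 10 members had 14 such windows among 34943 in the table. Searches covered both strands for the E-box CACGTG, the E-prime-box CACGTT, the cAMP response element TGACGTCA and its shorter core TGACG (which every full element contains), the D-box TTANGTAA and the ROR element core TNGGTCA. Capitals mark every match. The windows are PER1 at chr17:8152355-8152654 (minus strand), PER2 at chr2:238288561-238288860 (minus), BHLHE40 at chr3:4979187-4979486 (plus), NR1D1 at chr17:40100540-40100839 (minus), the downstream of 2 windows of NR1D2 at chr3:23945871-23946170 (plus) and DBP at chr19:48637330-48637629 (minus).
PER1: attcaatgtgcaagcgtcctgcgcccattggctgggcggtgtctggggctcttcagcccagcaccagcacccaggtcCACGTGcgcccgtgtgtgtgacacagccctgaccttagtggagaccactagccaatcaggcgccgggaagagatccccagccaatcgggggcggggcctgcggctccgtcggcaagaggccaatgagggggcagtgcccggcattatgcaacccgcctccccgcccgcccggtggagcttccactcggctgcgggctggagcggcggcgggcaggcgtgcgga
PER2: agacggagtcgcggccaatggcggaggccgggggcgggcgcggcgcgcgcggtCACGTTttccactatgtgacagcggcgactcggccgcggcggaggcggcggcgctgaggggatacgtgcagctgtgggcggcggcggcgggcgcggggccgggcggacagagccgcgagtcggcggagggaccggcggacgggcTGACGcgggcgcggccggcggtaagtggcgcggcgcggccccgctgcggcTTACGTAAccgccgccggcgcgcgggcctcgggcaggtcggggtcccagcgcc
BHLHE40: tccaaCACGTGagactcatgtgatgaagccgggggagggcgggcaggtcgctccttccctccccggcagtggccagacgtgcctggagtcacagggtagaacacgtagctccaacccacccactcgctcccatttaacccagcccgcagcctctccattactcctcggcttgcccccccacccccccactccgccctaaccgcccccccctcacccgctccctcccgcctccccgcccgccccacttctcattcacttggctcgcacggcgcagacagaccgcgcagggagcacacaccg
NR1D1: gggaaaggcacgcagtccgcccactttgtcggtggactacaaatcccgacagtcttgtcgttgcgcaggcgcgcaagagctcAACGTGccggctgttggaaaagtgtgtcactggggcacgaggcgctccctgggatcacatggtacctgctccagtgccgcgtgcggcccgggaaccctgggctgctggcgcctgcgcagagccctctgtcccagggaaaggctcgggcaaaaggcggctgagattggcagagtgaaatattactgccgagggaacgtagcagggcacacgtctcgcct
NR1D2: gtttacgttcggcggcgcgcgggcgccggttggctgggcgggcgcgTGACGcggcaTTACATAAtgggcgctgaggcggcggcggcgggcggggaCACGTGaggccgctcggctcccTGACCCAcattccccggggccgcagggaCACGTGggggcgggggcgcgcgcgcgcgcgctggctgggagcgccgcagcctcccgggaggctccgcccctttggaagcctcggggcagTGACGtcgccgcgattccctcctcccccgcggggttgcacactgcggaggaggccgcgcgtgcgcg
DBP: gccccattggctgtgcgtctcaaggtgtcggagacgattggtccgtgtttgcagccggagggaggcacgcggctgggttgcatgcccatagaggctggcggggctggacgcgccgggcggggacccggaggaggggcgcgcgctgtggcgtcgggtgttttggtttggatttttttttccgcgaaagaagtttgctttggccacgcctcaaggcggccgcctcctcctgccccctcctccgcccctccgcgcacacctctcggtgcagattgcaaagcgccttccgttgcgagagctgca
The E-box was found in 5 of the 14 windows, of 4 members (PER1, NR1D2, TEF and BHLHE40), and in 7.23% of all windows. Counted from the start, its first base lay at -173 in PER1, at -245 in BHLHE40, and at -155 and -105 in NR1D2. The E-prime-box was found in 4 of the 14 windows (PER2, CRY1, CRY2 and NR1D1) and in 5.35% of all windows. D-boxes were found in 3 of the 14 (PER2, PER3 and NR1D2), beside 2.19% of all windows. The ROR element core was in 2 of the 14 (CRY2 and NR1D2), beside 9.46%. The short TGACG core was in 6 of the 14 (of PER2, CRY1, CRY2 and NR1D2), beside 24.5%. The full TGACGTCA, in 1.84% of all windows, was in none of the 14, and the DBP window held no match to any of the motifs. The PER1 and BHLHE40 windows, of the members with the largest rises, and the TEF windows, of a member that did not pass, each hold an E-box.

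The partners of these genes in the clock were described by counts over named lists. Unless a group is named, values are for the average over the siRNAs, in which 14.9% of all genes were called (7.6% higher and 7.31% lower). The counts of 1 of 6 activators and 2 of 13 kinases, ligases and partners lie near that share. Of 6 tested activators and ROR receptors, 1 rose (ARNTL2, 0.39, edgeR adjusted p = 0.0328) and 0 fell by serum on average, with a list median of 0.20 against -0.03 over all genes. CLOCK was at 0.34 (0.126) and ARNTL at 0.26 (0.0918). RORA, an activator of ARNTL, fell by 1.63 in siPFDN5 (0.0109), where 12.2% of all genes were called. No gene of this list was called lower in siControl, in siPFDN2 or on average. RORA was low, at 1.69 to 5.19 CPM before serum and 1.42 to 3.46 CPM after it, and the times overlapped. Of 3 other repressors and bZIP factors, NFIL3, the D-box repressor, rose by 0.90 (0.000107) and HLF by 0.39 (0.0291), with a list median of 0.39. NFIL3 was at 22.1 to 30.7 CPM before serum and 40.6 to 54.3 CPM after it, and was called under each siRNA, while DBP fell. Of 13 kinases, ligases and partners, USP2, a deubiquitinase, rose by 0.95 (0.000479) and TIPIN by 0.42 (0.0327), 0 fell, and the median was 0.05. The casein kinase genes CSNK1D (-0.03, 0.854) and CSNK1E (-0.15, 0.357) did not pass. Levels of HLF and TIPIN overlapped between the times.

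Genes of the input to the clock by CREB, the factor through which calcium and cAMP signals reach PER1, were described in the same way. The share of all genes beside these counts is again 7.6% higher and 7.31% lower. Of 11 tested, 5 rose and 2 fell, with a median of 0.26. The list and its rises also include NOCT and ID2, which are not CREB factors, their coactivators or kinases. SIK1, the kinase that switches off the CREB coactivators, went from 0.589 to 0.976 CPM before serum to 8.93 to 16.1 CPM after it and rose by 3.92 (edgeR adjusted p = 5.43e-09). CREM rose by 1.76 (1e-06), NOCT, the clock-controlled gene of nocturnin, by 1.68 (9.41e-08), ID2 by 1.11 (0.00194) and ATF1 by 0.57 (0.0177). The CREB coactivators CRTC1 (-0.64, 0.0453) and CRTC3 (-0.37, 0.0429) fell, but their libraries overlapped between the times. CRTC1 was at 12.4 to 33.1 CPM before serum and 7.12 to 14.8 CPM after it. CRTC3 was at 25.2 to 38.2 CPM and then 17.2 to 28.2 CPM. Of 6 tested genes of the glucocorticoid receptor and its targets, 4 rose, PER1 among them, with SGK1 at 2.21 (3.46e-07), TSC22D3 at 0.46 (0.00618) and the receptor NR3C1 at 0.46 (0.0441). FKBP5 (-0.17, 0.239) and KLF9 (-0.05, 0.735), 2 common glucocorticoid targets, did not pass, and the list median was 0.46. Levels of TSC22D3 and NR3C1 overlapped between the times. Of 6 clock output genes, GADD45B (2.51, 1.57e-08), WEE1 (1.86, 1.04e-06), the gene of a kinase that delays mitosis, and NAMPT (0.70, 0.0107) rose, and PPARA fell by 0.35 (0.0186), with a median of 0.31. WEE1 was at 41.9 to 65.1 CPM before serum and 163 to 228 CPM after it.

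The genes most like each member were sought among 12113 genes with a mean log2 CPM of at least 3, by Pearson's r over the 12 libraries, which share their depth and GC differences, and the values are descriptions. PER1 was most like ELMSAN1 (0.982) and MYADM (0.977), PER2 like CDCP1 (0.969) and PER1 itself (0.964), and CRY1 like the zinc finger genes ZBTB43 (0.986) and ZBTB21 (0.985). BHLHE40 was most like BHLHE40-AS1 (0.998), its antisense neighbour, whose fragments cannot be told apart from its own where the 2 overlap, and then LATS2 (0.994), a Hippo pathway kinase gene. NR1D2 was most like SEPT10 (0.995) and CCDC68 (0.989), NR1D1 like ZNF618 (0.977) and TNS1 (0.963), and DBP like LRP1 (0.971) and ST6GAL1 (0.954). For PER3 (ACVR2B, 0.923), CRY2 (CAMSAP1, 0.926) and TEF (SMO, 0.956) these were the closest genes. The levels of these 3 members overlapped between the times, as did those of NR1D1.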

How the data were processed

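The 12 libraries from HCT116 cells were put in 6 groups of 2 by their titles. The authors deposited counts per gene over gene bodies and over exons, made with featureCounts 1.5.2 on Ensembl release 87 of GRCh38 per the file headers, which took fragments with both mates aligned, gave each to every gene it overlaps, and ignored strand. The submitters' processing notes also name HISAT2 0.12.2 and kallisto 0.43, without a role. The deposited files per sample hold estimated counts per transcript, which were summed per gene and rounded. Exon totals ran from 46158398 to 114454288 and transcript totals from 44071628 to 99082827 per library. 6 columns of each count table matched no sample and were not used. Names and the GC content of each gene's longest transcript came from GENCODE 29, and names absent from it from a second list of gene names. Gene positions, lengths and overlaps were those given with the deposited counts.

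Gene-body counts were tested with edgeR 4.0.16 (R 4.3.3): filterByExpr, TMM, 1 model of 6 group means over 12 libraries, robust quasi-likelihood tests, two-sided, with Benjamini-Hochberg adjustment over all genes tested and calls at an adjusted p under 0.05. CPM are relative to TMM-scaled totals, with a prior count of 2 on the log2 scale. Intronic counts were gene-body minus exon counts, tested as an intron-by-group term with the library as a block among genes with at least 10 intronic and 10 exonic counts in at least 2 libraries (at least 50 as an alternative). The GC trend was a lowess (span 0.3, 3 iterations) added to the offsets. Alternatives were DESeq2 1.42.0, other scalings, no filter, exon counts, transcript estimates, the replicate block, fits on the compared libraries only and leaving out each library. Only the main edgeR fit was tested on simulated counts, for the serum response in siControl. The alternatives, the intron fit and the other comparisons were not. Samples were not treated as paired by replicate number in the main model. Of 15 pairs of groups, the correlation of same-numbered deviations was over 0.1 in 4 (range -0.322 to 0.592). These values cannot exclude a pairing, because libraries also differ in GC trend.

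Named genes are the 10 members, members of 7 lists of clock and input genes, and the 2 genes most like each member. The members and lists were chosen with earlier results of these data known.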

Additional observations from a re-analysis of the deposited data

Results flagged for a closer look

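NR1D1 stood out because both siControl libraries were higher after serum than before and both libraries labelled siPFDN5 were lower. In siControl the times nearly touched, at 27.5 and 25.1 CPM before serum and 37.3 and 27.6 CPM after it. The log2 response there was 0.30 ± 0.31 (edgeR adjusted p = 0.814). The difference of the NR1D1 log2 serum response, siPFDN5 minus siControl, was -1.01 (edgeR adjusted p = 0.214). PFDN5 was little below siControl in the libraries labelled siPFDN5 after serum, and the part of this in the value was not tested.

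TEF stood out because both siPFDN2 libraries were lower after serum (18.6 and 20.7 CPM, after 21.3 and 34.7 CPM) and both siPFDN5 libraries higher (22.1 and 23.4 CPM, after 19.3 and 21.2 CPM). The difference of the 2 log2 responses, siPFDN5 minus siPFDN2, was 0.68 and was not tested. It was 0.29 without the second library of siPFDN2 before serum, 0.99 without the first and 0.33 with the GC trend removed.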

How the results depend on the processing

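Counts of members called moved by over 1.5 times as follows, with the share of all genes called in brackets. In siControl (3) they were 5 with DESeq2 (4.31%), 6 with the GC trend removed (6.34%) or with the replicate block as well (5.4%), and 6 with only the libraries compared (4.03%). In siPFDN2 (3) they were 5 with DESeq2 (11.2%), 7 with no filter (10.9%), 6 with the GC trend removed (6.72%) or with the replicate block as well (5.62%), 1 with exon counts (2.53%), transcript estimates (2.36%) or the libraries labelled siPFDN5 after serum left out (1.91%), and 0 with only the libraries compared (0.143%, with 4 members at an unadjusted p under 0.05). In siPFDN5 (5) they were 2 with exon counts (4.22%), 3 with transcript estimates (4.35%), 9 with the GC trend removed (29.3%) or with the replicate block as well (26.5%), and 9 with only the libraries compared (54.5%). Where the count was 0, no filter gave 3 for siPFDN2 before serum (2.23%), 1 for siPFDN5 before (2.13%), 1 for siPFDN5 after (5.42%), 2 for the difference in siPFDN2 (1.37%) and 3 for that in siPFDN5 (4.98%). For siPFDN5 before serum DESeq2 gave 1 (1.17%), the GC trend removed 1 (0.652%), also with the replicate block (0.276%), and only the libraries compared 3 (19.5%). For siPFDN5 after serum the GC trend removed gave 2 (13.5%), also with the replicate block (9.46%), and only the libraries compared 1 (7.81%). For the difference in siPFDN5, DESeq2 gave 1 (6.2%), the GC trend removed 3 (8.69%), only the libraries compared 3 (14.9%), and the replicate block with the GC trend removed 0 (0.00358%). The intronic count was 1 among genes without overlap, where only CRY2 was left. The causes were not tested, apart from the fewer genes there.

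Leaving out each library gave 2 to 7 in siControl, 1 to 7 in siPFDN2, 1 to 9 in siPFDN5 and 5 to 9 on average, 0 to 8 and 0 to 3 for siPFDN2 and siPFDN5 before serum, 0 to 1 and 0 to 2 after it, 0 to 7 and 0 to 5 for the differences, and 4 to 6 for introns. Apart from introns, the highest counts came without a library of siPFDN2 before serum. A group left with 1 library was assumed to vary like the others. The replicate block alone gave 3, 2 and 5 members in the separate siRNAs and 7 on average.

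Directions turned for TEF on average (0.028 with the GC trend removed, 0.030 with the replicate block as well, and -0.19 to 0.043 when each library was left out, the highest without siPFDN2 before serum replicate 2) and for CRY2 in siPFDN2 (-0.080 with library size only, and -0.11 to 0.44 when each library was left out, the lowest without siPFDN2 before serum replicate 1). These were the only turns among the 62 log2 changes of single members followed across the alternatives. Changes outside that set also turned when each library was left out, such as those near 0 in siControl of PER3 (-0.12 to 0.17) and TEF (-0.07 to 0.15). Larger ones turned too. In siPFDN2 against siControl before serum, NR1D1 (0.36 with all libraries) ran from -0.36 to 0.82. There CRY2 (0.28) ran from -0.03 to 0.52 and TEF (0.32) from -0.07 to 0.62. Leaving out a library lost a call in 73 values of the set and gained one in 56, and the other alternatives lost 28 and gained 73. The lowest member, PER3, had at least 377 fragments in every library, and the part of depth in the calls was not tested.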
